A study of Mus musculus with 72 samples.

Results

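The genes described here are 10 members of the RGS family (regulators of G-protein signalling): Rgs2, Rgs3, Rgs4, Rgs5, Rgs8, Rgs10, Rgs12, Rgs16, Rgs17 and Rgs19. They are 10 of the 50600 genes in the count table. They were chosen by symbol as candidates for feedback on Gq signalling, with the response to GRP already known. The comparison of GRP with mock therefore belongs to the choice and is given as a description. Members past the thresholds of a call are counted there, but no p is given and nothing is read from the count.

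RNA was sequenced from 72 libraries of 6 mouse melanoma cell lines, each under 4 treatments with 3 libraries per group. All lines carry the melanocyte-directed oncogene Tyr::NRASQ61K/°. The female lines 1057 and 1064 also carry Cdkn2a-/-, Tyr::CreA/° and Cdh1dF/dF, and express the gastrin-releasing peptide receptor gene Grpr on their own. The male line 1181 is labelled Cdkn2a-/- and Cdh1dF/dF (a deleted E-cadherin gene) without the Cre, and the female line 1014 carries the oncogene only. Both were given either CMV::Grpr/tGFP (1181-Grpr and 1014-Grpr) or CMV::tGFP alone (1181-Ctrl and 1014-Ctrl), so that a viral promoter drives their receptor. The paper describes the male line as positive for E-cadherin, which conflicts with the deleted allele in its label. Cells were starved for 18 h in 0.5% FCS and then treated for 4 h with 0.1% DMSO (mock), 10 nM GRP (the peptide ligand of GRPR), 1 µM RC (RC-3095, which blocks GRPR), or both compounds at once. The labels do not say whether the libraries of a group came from separate cultures, and the study's methods state biological replication for cell culture work in general only. The p-values measure the spread between these libraries, which may be technical.

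Library totals ran from 19512882 to 46862053 counts. Grpr lay between 12.4 and 1557 TPM (a level corrected for gene length and library depth) in the 4 GRPR-expressing lines and at or below 0.14 TPM in the control lines, apart from 2 libraries that went against their labels. The 1014-Ctrl mock replicate 2 library held 1165 counts of Grpr and 1557 of the Y-linked gene Ddx3y, which the rest of the 1014 libraries lack. The 1181-Grpr GRP+RC replicate 2 library held 0 counts of both genes, whereas its neighbours held 1001 counts of Ddx3y or more. Results that rest on either library are given with and without both. All 8 melanocyte lineage markers were above 1 TPM in every line, and Ptprc, Cd3e and Itgam, which define leukocytes, stayed under 0.1 TPM. The summed TPM of the 8 ran from 20370 to 51900 in 1181-Grpr, with the library against its label included, and from 7372 to 8522 in 1181-Ctrl. These 2 lines thus differed in more than Grpr.

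GRPR couples to G proteins of the Gq class, whose active, GTP-bound alpha subunit switches on phospholipase C and with it calcium release and protein kinase C. RGS proteins speed up GTP hydrolysis by alpha subunits and so shorten the signal. RGS2 acts mainly on Gq. RGS3, RGS4, RGS5, RGS8 and RGS16 are small or medium-sized members that act on Gi and Gq, RGS10 and RGS12 act on Gi, and RGS17 and RGS19 belong to a group known for acting on Gz and Gi. RGS2 and RGS16 are known to be induced by the pathways that they restrain.

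The promoters of Rgs2, Rgs16 and Rgs17 are shown because these members were called with GRP at more than a handful of counts, Rgs2 and Rgs16 in several lines and Rgs17 in one. Each sequence is the 250 bases before the RefSeq start in GRCm38.p6, 5′ to 3′ on the strand of the gene. Rgs2 is at chr1:144004150-144004399 on the minus strand, Rgs16 at chr1:153740103-153740352 on the plus strand and Rgs17 at chr10:5922401-5922650 on the minus strand. Capitals mark matches, on either strand, to the CRE core (TGACG, part of the element bound by CREB-type factors), AP-1 (TGANTCA), TEAD (GGAATG), EGR (GCGNGGGCG), the full CRE (TGACGTCA, which contains the CRE core) or the CArG box.
Rgs2: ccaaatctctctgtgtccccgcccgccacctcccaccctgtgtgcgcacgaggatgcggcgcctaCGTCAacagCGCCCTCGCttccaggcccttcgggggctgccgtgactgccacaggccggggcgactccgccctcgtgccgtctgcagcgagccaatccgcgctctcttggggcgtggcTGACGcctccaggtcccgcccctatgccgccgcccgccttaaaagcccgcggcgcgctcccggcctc
Rgs16: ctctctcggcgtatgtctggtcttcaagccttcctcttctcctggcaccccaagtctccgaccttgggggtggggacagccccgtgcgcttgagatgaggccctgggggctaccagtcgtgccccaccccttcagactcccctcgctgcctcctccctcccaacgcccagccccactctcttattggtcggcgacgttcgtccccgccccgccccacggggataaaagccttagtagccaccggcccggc
Rgs17: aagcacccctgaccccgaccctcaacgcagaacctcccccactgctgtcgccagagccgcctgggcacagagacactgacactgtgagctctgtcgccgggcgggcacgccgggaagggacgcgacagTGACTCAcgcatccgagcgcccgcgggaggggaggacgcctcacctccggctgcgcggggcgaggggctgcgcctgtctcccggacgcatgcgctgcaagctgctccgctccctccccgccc

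The Rgs2 promoter held 2 CRE cores, beginning 185 and 67 bases before the start, and 1 EGR match beginning 176 bases before it. The Rgs17 promoter held 1 AP-1 match, beginning 122 bases before the start, and the Rgs16 window held none of the 6 motifs. Of 32851 mouse promoter windows of this length, 17.8% held a CRE core, 6.75% AP-1, 4.7% EGR, 12.6% TEAD, 1.55% the full CRE and 1.47% a CArG box. A match describes letters only and not a site.

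Without ligand, Rgs19, Rgs12, Rgs10 and Rgs3 were the more abundant members in most lines on the TPM scale. Rgs19, a regulator tied to Gi and to vesicle traffic, ran from 13 ± 0.834 TPM in 1057 to 43.9 ± 4.57 TPM in 1014-Grpr (mean ± SD, n = 3 mock libraries, as for the levels that follow). Rgs12, a large scaffold-like member, ran from 11.55 ± 2.68 TPM in 1064 and 11.7 ± 0.606 TPM in 1057, which overlapped, to 38.3 ± 9.31 TPM in 1181-Grpr and 47.2 ± 20.4 TPM in 1181-Ctrl, which also overlapped. Rgs10, a small member without added domains, was at 2.68 ± 0.246 TPM in 1057 and between 8.62 ± 3.60 and 13.3 ± 3.91 TPM in the other lines, each of which overlapped the next in order. Rgs3 was lowest in 1014-Grpr at 3.91 ± 0.818 TPM and highest in 1181-Ctrl at 10.5 ± 2.87 TPM. Without the library against its label, 1014-Ctrl (2.735 ± 0.318 TPM, n = 2) was lowest instead and lay wholly below 1014-Grpr.

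**Figure D1:**
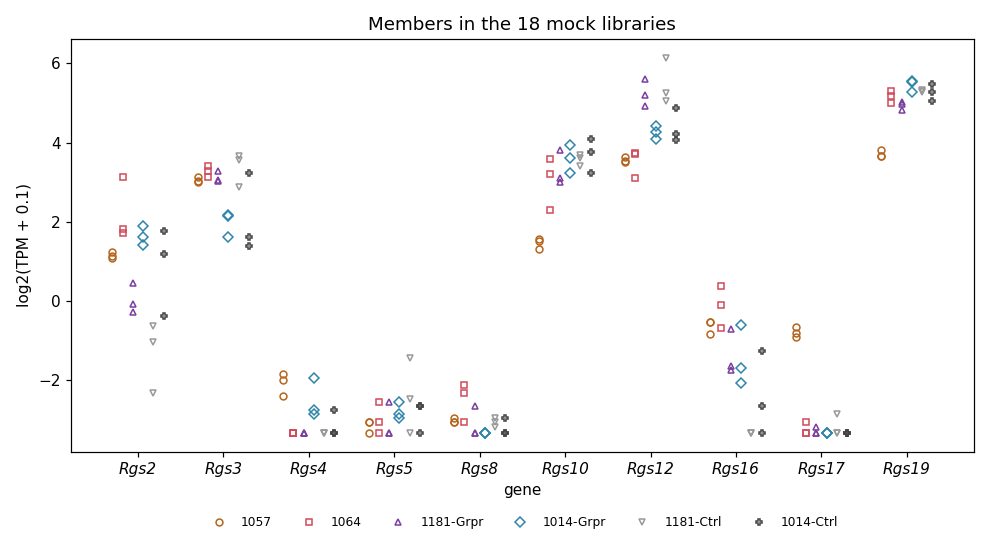
TPM of each member in the mock libraries, as log2(TPM + 0.1), with 1 symbol per library and 1 colour and shape per line. Rgs19, Rgs12, Rgs10 and Rgs3 sat highest, Rgs17 was above the rest only in 1057, and Rgs4, Rgs5 and Rgs8 lay near the bottom in every line.

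The remaining members were mostly lower at rest, although Rgs2 in 1064 and in 1014-Grpr reached levels that Rgs10 or Rgs3 had in some lines. Rgs2 was at 5.12 ± 3.11 TPM in 1064, 3.05 ± 0.506 in 1014-Grpr, 2.13 ± 0.107 in 1057, 2.06 ± 1.33 in 1014-Ctrl, 0.950 ± 0.293 in 1181-Grpr and 0.347 ± 0.228 in 1181-Ctrl. The 1064 mean rested on 1 library of 8.71 TPM beside 2 of 3.44 and 3.20 TPM, and the 1014-Ctrl mean includes 0.67 TPM in the library against its label. Neighbours in this order overlapped, except that 1014-Grpr lay wholly above 1057 and 1181-Grpr wholly above 1181-Ctrl. Without the library against its label 1014-Ctrl stood at 2.755 ± 0.785 TPM (n = 2), between 1014-Grpr and 1057 and overlapping both, and 1057 then lay wholly above 1181-Grpr, the next in order. Rgs16 did not exceed 1.2 TPM in any mock library and was listed at 0 in all 3 of 1181-Ctrl. Rgs17 was at 0.480 ± 0.0557 TPM in 1057 and at or below 0.04 TPM in the mock libraries of the other lines. Rgs4, Rgs5 and Rgs8 stayed at or below 0.43 TPM in all 72 libraries, and Rgs5, known as a marker of pericytes, passed the filter on low counts in no line.

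Of the 10 members, 9 passed that filter in at least 1 line: 9 in 1057, 7 in 1064, 6 in 1014-Grpr and 5 in each of 1181-Grpr, 1181-Ctrl and 1014-Ctrl. A call below means an adjusted p (edgeR quasi-likelihood test, Benjamini-Hochberg over all genes) under 0.05 with an absolute log2 fold change above 1. Values of 1 gene across libraries are CPM (counts scaled to library depth, normalized by TMM within the line).

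In GRP against mock, the contrast of the choice, 4 members were past the thresholds of a call in 1057, all higher, where 6.46% of all genes were, 2 in 1064 (2.32%), 2 in 1014-Grpr (4.01%) and 0 in 1181-Grpr, 1181-Ctrl and 1014-Ctrl (0% each). The 4 were Rgs2, Rgs4, Rgs16 and Rgs17, and the 2 were Rgs2 and Rgs16 in both lines. No member was called lower.

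Rgs2 stood at 2.32, 2.19 and 2.40 CPM in the mock libraries of 1057 and at 43.3, 47.4 and 44.1 CPM with GRP, a log2 fold change of 4.28 (SE 0.0828). In 1064 it went from 3.44, 3.35 and 9.60 CPM to 51.6, 48.5 and 56.8 CPM, a log2 fold change of 3.25 (SE 0.400). In 1014-Grpr it went from 2.66, 3.66 and 2.91 CPM to 16.3, 25.2 and 26.8 CPM, a log2 fold change of 2.88 (SE 0.223). In these lines no GRP library reached down to a mock library. The call in 1064 was lost without replicate 1 or without replicate 2, in fits that took no account of replicate number. In 1181-Grpr the groups overlapped, at 1.30, 0.889 and 0.747 CPM with mock and 1.70, 0.729 and 1.19 CPM with GRP.

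Rgs16 was almost silent before GRP. In 1014-Grpr it had 4, 12 and 2 counts in the mock libraries and 756, 2998 and 2078 counts with GRP, or 0.138, 0.370 and 0.0895 CPM against 30.8, 102 and 47.4 CPM, a log2 fold change of 8.11 (SE 0.732). In 1064 the mock libraries held 0.333, 0.566 and 0.850 CPM and the GRP libraries 8.39, 14.3 and 3.18 CPM, a log2 fold change of 3.86 (SE 0.737). In 1057 they held 0.328, 0.416 and 0.413 CPM and 1.00, 1.53 and 1.08 CPM, a log2 fold change of 1.64 (SE 0.251). The groups did not overlap in any of the 3 lines. The call in 1064 was again lost without replicate 1 or 2, in the same fits without replicate number. Rgs2 thus changed most in 1057 and Rgs16 most in 1014-Grpr, an order that was not tested. In 1181-Grpr Rgs16 held 24 counts or fewer in every library.

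**Figure D2:**
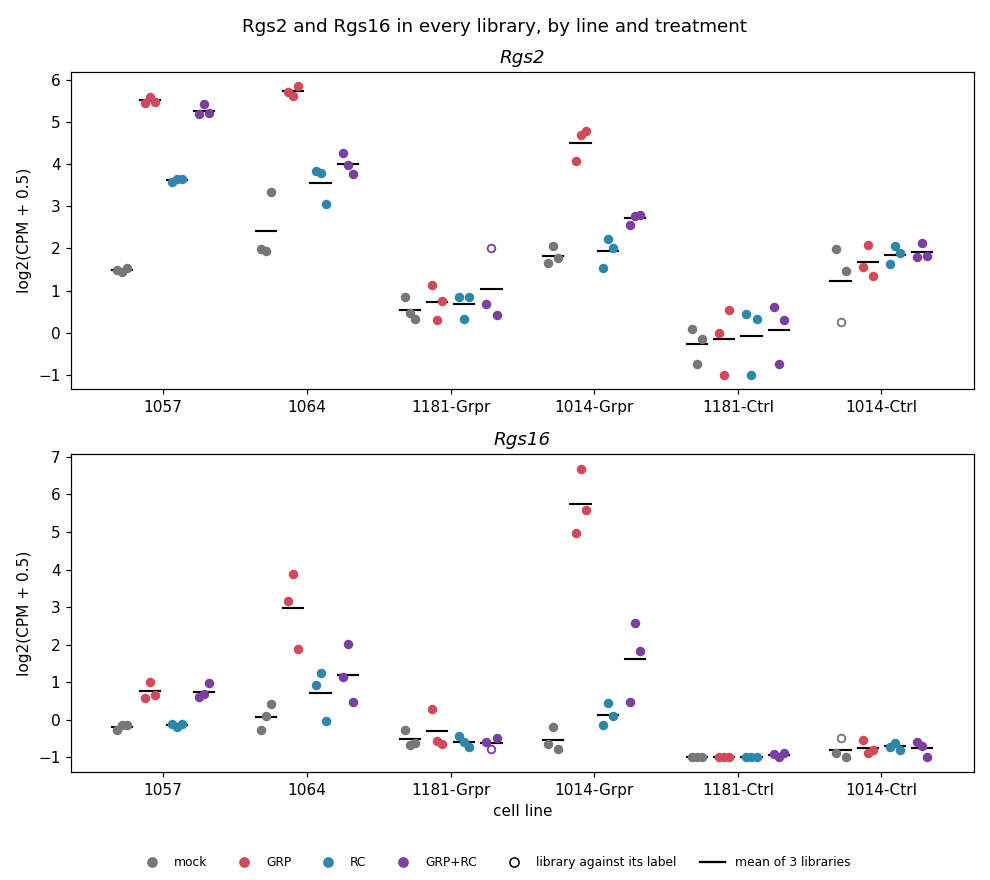
Rgs2 (top) and Rgs16 (bottom) in all 72 libraries as log2(CPM + 0.5), by line and treatment, with a bar at the mean of each group and open points for the 2 libraries that went against their labels. GRP libraries of 1057, 1064 and 1014-Grpr lie above the mock libraries for both genes, and the control lines show no such gap.

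Rgs17 exceeded 2 counts in 1057 only and stood there at 1.17, 1.05 and 1.32 CPM with mock and 3.54, 3.30 and 2.92 CPM with GRP, a log2 fold change of 1.45 (SE 0.160). Rgs4 in 1057 went from 5, 6 and 3 counts to 9, 11 and 9 counts, a log2 fold change of 1.10 (SE 0.413). That call was lost with DESeq2 and when any replicate number was left out. Rgs8, at 13 counts or fewer per library in 1057 and 22 or fewer in 1064, had log2 fold changes of 1.73 (SE 0.715) and 1.23 (SE 0.529), and neither was called. In 1064 its libraries did not overlap, at 0.259, 0.0472 and 0.395 CPM with mock against 0.496, 0.459 and 0.777 CPM with GRP. In 1014-Grpr, where it did not pass the filter, it had 0 counts in every mock library and 4, 8 and 6 counts with GRP.

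The abundant members changed by less than the fold threshold. Rgs12 differed by -0.60 (SE 0.0457) in 1057 and -0.72 (SE 0.185) in 1014-Grpr on the log2 scale, where no GRP library overlapped the mock libraries. Rgs3 differed by 0.51 (SE 0.0415) and 0.92 (SE 0.165) in the same lines. Rgs10 and Rgs19 differed by 0.34 at most in absolute value in any line.

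The comparison of GRP+RC with RC asks what GRP does in cells that also hold the antagonist. Its group means use neither the mock nor the GRP-only libraries, and it was tested, although the filter, the normalization and the spread come from all 12 libraries of a line. The members were also chosen with earlier results of these data known, so the test is not shown to be independent of the choice. A fit of the RC and GRP+RC libraries alone, added after the data were seen, called the same number of members in every line. In the main fit, which takes no account of replicate number, Rgs2 and Rgs16 rose in 1057, and no member was called in any other line. With replicate number as a block, Rgs16 was also called in 1014-Grpr, as given below. In 1057 2 of 9 members were called, both higher, against 0.916% of all genes. In 1064, 1181-Grpr, 1014-Grpr, 1181-Ctrl and 1014-Ctrl 0 members were called and 0% of all genes, and of the members 3 in 1014-Grpr, where 6.93% of all genes did, and 0 in the others had an unadjusted p under 0.05. DESeq2, likewise fitted without replicate number, also called 0 members in these 5 lines.

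In 1057 Rgs2 stood at 11.39, 11.98 and 11.94 CPM with RC and at 35.7, 42.1 and 36.2 CPM with GRP+RC, with no overlap. Its log2 fold change was 1.69 (SE 0.0644, adjusted p = 4.05e-12, edgeR). Rgs16 stood at 0.434, 0.383 and 0.430 CPM with RC and at 1.01, 1.11 and 1.46 CPM with GRP+RC, a log2 fold change of 1.51 (SE 0.251, adjusted p = 0.000227, edgeR). Both were higher in 3 of 3 GRP+RC libraries than in any RC library. In one fit of all 72 libraries, which shares the spread of the more variable lines, both calls were lost at log2 fold changes of 1.68 and 1.5. Rgs12 was lower by -0.14 (SE 0.0448, adjusted p = 0.0291, edgeR), which passes the adjusted p but not the fold threshold. In the fit of RC and GRP+RC libraries alone Rgs2 was at 1.7 (adjusted p = 2.86e-10), Rgs16 at 1.51 (adjusted p = 0.000454) and Rgs12 at -0.14 (adjusted p = 0.0521, edgeR). Rgs17 had a log2 fold change of 0.46 (SE 0.182, adjusted p = 0.0849, edgeR) and Rgs4 one of 0.84 (SE 0.364, adjusted p = 0.122, edgeR).

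In 1014-Grpr Rgs16 stood at 0.403, 0.863 and 0.582 CPM with RC and at 0.881, 5.48 and 3.03 CPM with GRP+RC. The groups did not overlap, and the log2 fold change of 2.32 (SE 0.759) had an adjusted p of 0.487 (edgeR). The replicate numbers pair the libraries of this line, and with the number as a block Rgs16 was called at a log2 fold change of 2.35 (SE 0.239, adjusted p = 6.76e-06, edgeR), beside 0.233% of all genes. Rgs2 stood at 2.42, 4.20 and 3.53 CPM with RC and 5.38, 6.35 and 6.44 CPM with GRP+RC, a log2 fold change of 0.83 (SE 0.231, adjusted p = 0.336, edgeR). With the block its adjusted p was 0.000699 (edgeR) at 0.84, under the fold threshold. Rgs3 had a log2 fold change of 0.43 (SE 0.168, adjusted p = 0.618, edgeR), and an adjusted p of 0.00798 with the block.

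In 1064 the log2 fold changes were 0.42 (SE 0.368) for Rgs2 and 0.69 (SE 0.667) for Rgs16, with an adjusted p of 1 for both (edgeR). Replicate number pairs the libraries of this line too, and this fit takes no account of it. These values therefore do not show that GRP was without effect there. In 1181-Grpr that of Rgs2 was 0.69 (SE 0.529, adjusted p = 0.85, edgeR), and without the 2 libraries against their labels it was -0.19 (SE 0.410). The replicate 2 library that goes against its label held 3.49 CPM of Rgs2 beside 1.12 and 0.841 CPM in the other two.

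**Figure D3:**
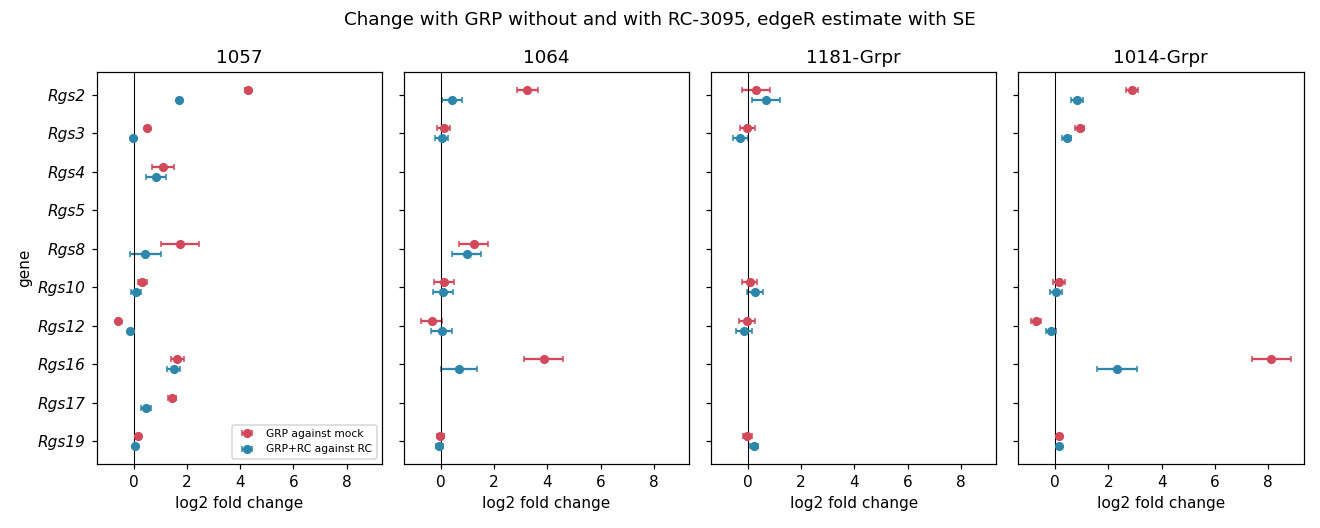
Log2 fold change of each member that passed the filter in the 4 GRPR-expressing lines, for GRP against mock (red) and GRP+RC against RC (blue), as the edgeR estimate with its standard error. Rgs2 lies at 4.28 and 1.69 in 1057 and at 2.88 and 0.83 in 1014-Grpr, while Rgs16 lies at 1.64 and 1.51 in 1057 and at 8.11 and 2.32 in 1014-Grpr.

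Averaged over the 4 GRPR-expressing lines, GRP+RC against RC called 0 of 8 members and 0.00614% of all genes. Rgs2 had a mean log2 fold change of 0.90 (SE 0.173, adjusted p = 0.0318, edgeR), below the fold threshold, and 0.69 (SE 0.158, adjusted p = 0.14) without the 2 libraries against their labels. With RC and GRP+RC libraries alone its adjusted p was 0.0644 (edgeR). Rgs16 had a mean log2 fold change of 1.10 (SE 0.378, adjusted p = 0.479, edgeR). With the replicate block, where 2 of the 4 lines met the pairing criterion, it was called at 1.09 (SE 0.259, adjusted p = 0.0155, edgeR). Averaged over the 2 control lines 0 of 5 members and 0% of all genes were called. Rgs2 had there a mean log2 fold change of 0.13 (SE 0.632, adjusted p = 1, edgeR).

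Whether the effect of GRP under RC differed between a Grpr line and its control line was tested as an interaction. It called 0 members and 0% of all genes in both pairs. In the 1014 pair the difference of log2 fold changes was 0.76 (SE 0.486, adjusted p = 1, edgeR) for Rgs2 and 2.59 (SE 1.57, adjusted p = 1, edgeR) for Rgs16. In the 1181 pair it was 0.50 (SE 1.34, adjusted p = 1, edgeR) for Rgs2, and it turned to -0.39 (SE 1.37, adjusted p = 1) without the 2 libraries against their labels. Rgs16 did not pass the filter in this pair. The errors are wide, and these values do not show that the lines of a pair act alike.

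RC alone also moved members in 1057, by a comparison that shares the mock libraries with the choice and is a description. It called 1 of 9 members there, Rgs2, against 0.888% of all genes, and 0 members with 0% of all genes in 1064 and in 1014-Grpr. Rgs2 stood at 11.39, 11.98 and 11.94 CPM with RC beside 2.32, 2.19 and 2.40 CPM with mock, a log2 fold change of 2.35 (SE 0.0977). Rgs3 was at 37.6, 39.4 and 38.5 CPM with RC and 26.2, 27.5 and 25.8 CPM with mock in 1057, so that its RC, GRP and GRP+RC libraries covered a common range. In 1064 Rgs2 had a log2 fold change of 1.07 (SE 0.377), and its groups overlapped because mock replicate 3 held 9.60 CPM beside 13.7, 13.2 and 7.84 CPM with RC. In 1014-Grpr Rgs2 differed by 0.14 (SE 0.240). Rgs16 had there a log2 fold change of 1.54 (SE 1.22), with no overlap, at 8, 22 and 16 counts with RC.

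How far RC lowered the level reached with GRP was described by GRP+RC against GRP. It called 1 of 9 members in 1057 (1.02% of all genes), 0 of 7 in 1064 (0.0145%) and 2 of 6 in 1014-Grpr (1.73%), all lower. In 1014-Grpr Rgs16 fell from 30.8, 102 and 47.4 CPM to 0.881, 5.48 and 3.03 CPM, a log2 fold change of -4.24 (SE 0.522), and Rgs2 changed by -1.91 (SE 0.211). In 1057 Rgs17 was the member called, at 1.48, 1.76 and 1.59 CPM with GRP+RC, a log2 fold change of -1.02 (SE 0.153), a call that was lost without replicate 1. Rgs2 and Rgs16 changed there by -0.24 (SE 0.0557) and -0.03 (SE 0.205). In 1064 Rgs2 changed by -1.75 (SE 0.374), with no overlap, and Rgs16 by -2.07 (SE 0.663). The replicate numbers pair the libraries of 1064 too, and with the block both were called.

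**Figure D4:**
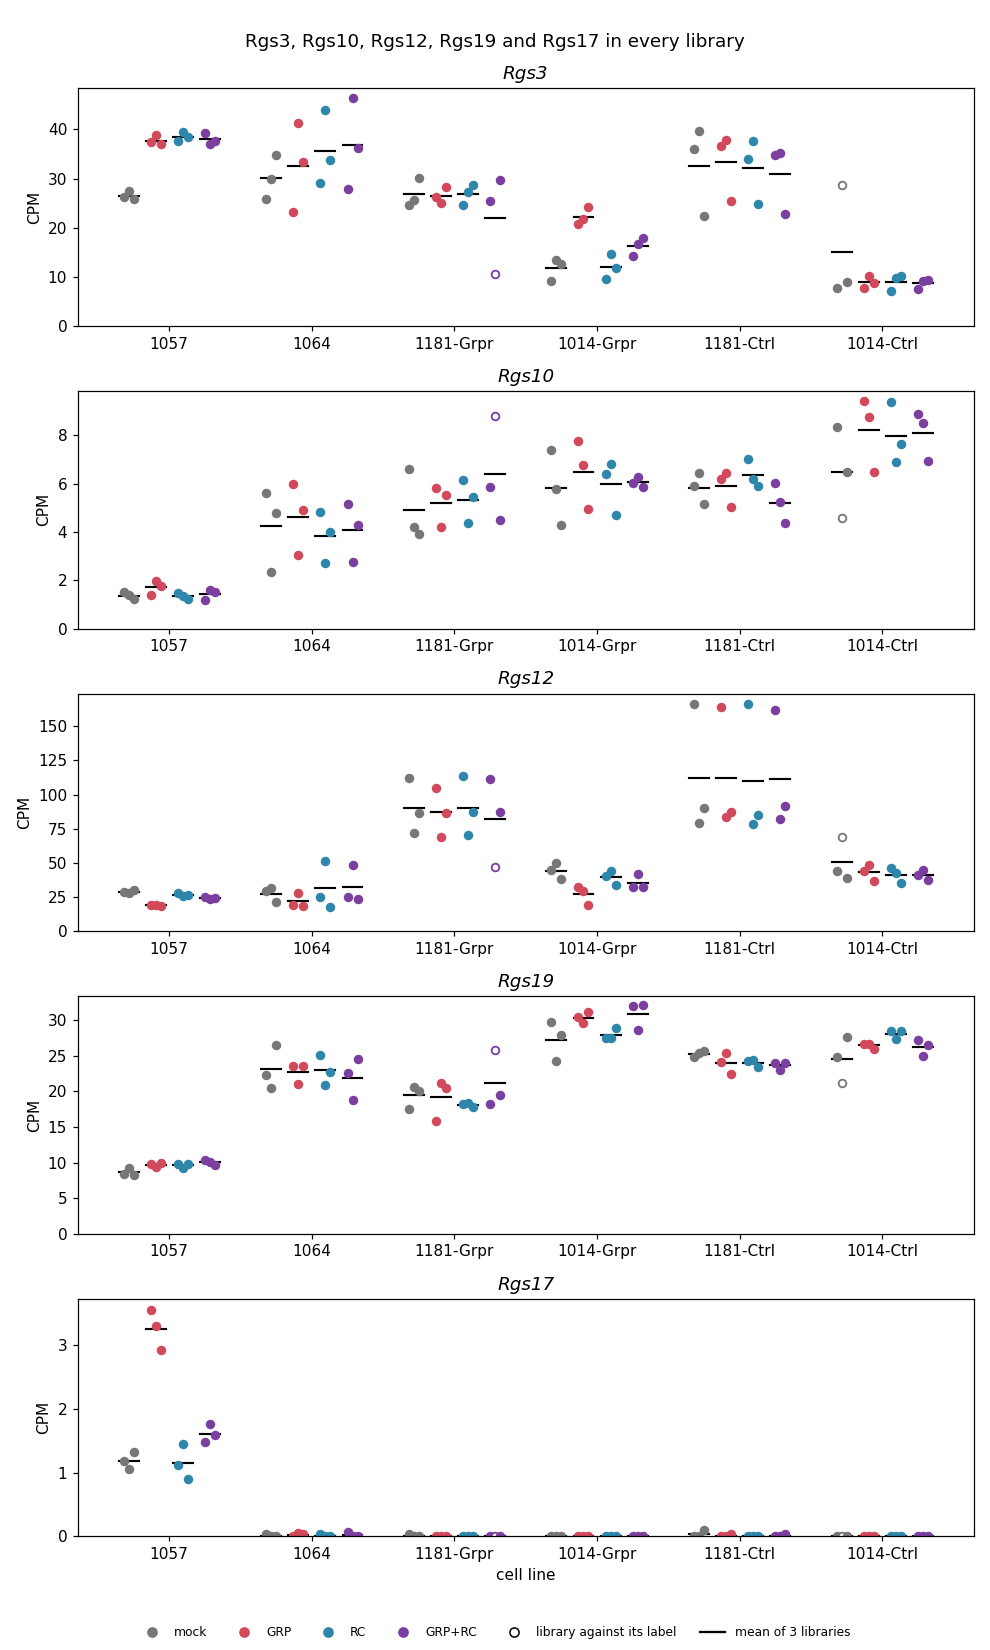
CPM of Rgs3, Rgs10, Rgs12, Rgs19 and Rgs17 in all 72 libraries by line and treatment, with a bar at the mean of each group and open points for the 2 libraries that went against their labels. Rgs12 in 1057 lies between 18.7 and 19.2 CPM with GRP and between 27.7 and 30.1 CPM with mock, Rgs17 rises above the axis in 1057 only, and the open points of Rgs3 and Rgs12 lie apart from their groups.

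Grpr versions were compared with their control versions at rest, in mock libraries, which the choice of members also used. In the 1014 pair 0 of 6 members were called, against 1.62% of all genes, and in the 1181 pair 0 of 5, against 6.72%. Rgs19 differed by -0.33 (SE 0.12, adjusted p = 0.0883, edgeR) in the 1181 pair, and by -0.34 (SE 0.0961, adjusted p = 0.0184) without the 2 libraries against their labels, under the fold threshold. Rgs3 in the 1014 pair differed by -0.33 (SE 0.326, adjusted p = 0.6, edgeR), and by 0.52 (SE 0.195, adjusted p = 0.215) without the 2 libraries, a change of direction that rests on the 1014-Ctrl mock replicate 2 library, at 28.7 CPM beside 7.77 and 8.98 CPM. In the RC libraries, which are not part of GRP against mock, 0 members were called in either pair, against 0.472% of all genes in the 1014 pair and 6.78% in the 1181 pair.

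The genes whose level followed Rgs16 most closely over the 72 libraries, by Pearson correlation of log2(CPM + 0.5) centred within each line, were Serpinb2 (r = 0.91), Adss (r = 0.907) and Hbegf (r = 0.892). For Rgs2, added after its values were seen, they were Nr4a2 (r = 0.952), Plekho1 (r = 0.923) and Fosl2 (r = 0.914). Between Rgs2 and Rgs16 r was 0.669. These libraries share treatments, and r is a description.

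Other genes of the pathway were counted from fixed lists. With GRP against mock 6.46% of all genes were called in 1057, 2.32% in 1064, 4.01% in 1014-Grpr and 0% in the other lines. With GRP+RC against RC the share was 0.916% in 1057 and 0% in the other lines. At such shares, 0 calls in lists this short do not show that their genes stay unchanged. Of 13 other RGS genes and binding proteins, between 3 and 5 passed the filter in each line, and 0 were called with GRP against mock or with GRP+RC against RC in any line. Of 14 genes for G protein alpha subunits and Gnb5, 10 or 11 passed in each line and 0 were called in either comparison. The 3 RhoGEFs with an RGS-like domain passed in every line, with 0 called. Of 8 receptor kinases and arrestins, 6 or 7 passed, and 1 was called lower with GRP in 1014-Grpr. It was Grk4, a G protein-coupled receptor kinase, named after its values were seen, with 41 to 63 counts per mock library and 21 to 42 with GRP, a log2 fold change of -1.02 (SE 0.207), just past the fold threshold. The median log2 fold change with GRP in 1057 was -0.09 for the other RGS genes, 0.06 for the alpha subunits, -0.17 for the RhoGEFs and -0.31 for the kinases and arrestins, beside -0.01 over all genes tested.

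At rest, 3 genes of these lists were called, all from the list of other RGS genes and binding proteins. Of that list 5 passed the filter in each pair. In the 1181 pair 2 were called, where 6.72% of all genes were, and in the 1014 pair 1 was, where 1.62% were. The other lists had 0 called among 11 alpha subunit genes and Gnb5, 3 RhoGEFs and 6 (1014 pair) or 7 (1181 pair) kinases and arrestins. Rgs14, a scaffold that binds Gi and Ras-family proteins, had 209, 111 and 249 counts in 1181-Grpr and 76, 56 and 68 counts in 1181-Ctrl, a log2 fold change of 1.31 (SE 0.421, adjusted p = 0.0485, edgeR). That call was lost with RLE normalization (adjusted p = 0.0514, edgeR), without a filter on low counts (0.0689) and when any replicate number was left out. It held with DESeq2 (adjusted p = 0.0191) and without the 2 libraries against their labels (0.0301, edgeR). In the RC libraries the adjusted p was 0.0764 at 1.17 (edgeR), and 0.0384 with DESeq2. Between 2 lines the replicate block, as fitted, compares replicate 1 alone. Its log2 fold change of 0.98 is therefore not the difference of the group means. Rgs9, known from photoreceptors and striatum, had 23, 12 and 13 counts in 1181-Grpr and 2, 0 and 2 counts in 1181-Ctrl (adjusted p = 0.00385, edgeR). Its call was lost without replicate 3 (adjusted p = 0.12), and in the RC libraries its log2 fold change was 1.34 (adjusted p = 0.147, edgeR). Rgs9bp, which anchors RGS9, had 28, 25 and 17 counts in 1014-Grpr and 48, 135 and 29 counts in 1014-Ctrl, a log2 fold change of -1.78 (SE 0.414, adjusted p = 0.0237, edgeR). Without the 2 libraries against their labels it was -0.82 (SE 0.284, adjusted p = 0.171, edgeR), and the call was lost. It was also lost when any replicate number was left out. The replicate block again compares replicate 1 alone and is not used here.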

How the data were processed

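The authors deposited raw read counts for each gene, not normalized, and TPM values, scaled for gene length and depth. Reads of polyA-selected, stranded libraries had been aligned by STAR (mouse GRCm38, GENCODE genes), per the labels and the paper's methods. In the TPM table the 12 columns of 1057 carry a decimal comma, another number format, which was read as a point. The deposited tables hold 0 sample columns that were left unused.

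Groups came from the sample labels. The members and all gene lists were chosen with earlier results of these data known. Every member was named, with every library where it was called or where groups did not overlap and the absolute log2 fold change was above 1. The 3 genes most like the member with the highest mean change with GRP, Rgs16, were named too. Counts were filtered (filterByExpr), normalized by TMM and tested with edgeR 4.0.16 in R 4.3.3, in one fit per line, per pair of lines, over the 4 GRPR-expressing lines or over the 2 control lines. SE was taken as the size of the estimate over the root of its F statistic. The test was checked on simulated data. Depth was 19512882 to 46862053 counts per library, so that a floor of 3 counts was at most 0.154 CPM. Floors cover counting error only. No 2 replicates agreed within sampling noise, the lowest chi-square per degree of freedom being 2.56 over 72 pairs. The pairs of 1057 ran from 2.56 to 9.85, and those of the other lines were at 11.6 or more. Numbers of calls in 1057 and in the other lines are therefore not directly comparable.

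Same-numbered libraries were taken as paired where every correlation of their deviations from group means was over 0.1. That held in 1064 (lowest r = 0.646), 1014-Grpr (0.46) and 1181-Ctrl (0.826), and not in 1057 (-0.222), 1181-Grpr (-0.029) or 1014-Ctrl (0.065). Alternatives were DESeq2 1.42.0, RLE normalization, no filter on low counts, no fold threshold, a single fit of the 72 libraries, replicate number as a block, leaving out each number, no libraries against their labels, RC in place of mock libraries at rest, and CPM in place of TPM for levels. A fit of the RC and GRP+RC libraries alone was added after seeing the data. Promoter windows and their positions came from RefSeq starts on GRCm38.p6, where all 10 members matched, in 16 windows.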

Additional observations from a re-analysis of the deposited data

Results flagged for a closer look

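Rgs5 moved in opposite directions with GRP+RC against RC in 1057 and 1181-Ctrl, where no library of one group overlapped the other. The mean difference was 0.0550 CPM in 1057 and -0.0964 CPM in 1181-Ctrl. The counts were 4 or fewer in each of these libraries, Rgs5 passed the filter on low counts in neither line, and the difference between the lines was not tested.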

How the results depend on the processing

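The number of members called stayed at 0 or within 1.5 times the reported number in 315 of 337 recalculations, and 0 of the 253 recalculated log2 fold changes of called members, or of members with an unadjusted p under 0.05 in a tested comparison, changed sign. Most of these comparisons had 0 members called to begin with, many of them with 0 genes called at all. The 315 therefore says little about how stable the calls were, and the counts that moved follow. In a single fit of the 72 libraries the members called in 1057 were 0 for GRP+RC against RC, 2 for GRP against mock and 0 for GRP+RC against GRP, and in 1064 they were 2 for GRP+RC against GRP. With the adjusted p alone they were 7 for GRP against mock in 1057, 2 for RC against mock in 1057, 3 for GRP+RC against GRP in 1057, 4 for GRP against mock in 1014-Grpr and 1 for GRP+RC against RC over the 4 GRPR-expressing lines. With the replicate block they were 2 for GRP+RC against GRP in 1064, 1 for GRP+RC against RC in 1014-Grpr and 1 over the 4 GRPR-expressing lines. The block without the 2 libraries against their labels gave the same 2, 1 and 1, and also 1 at rest in the 1181 pair. That was Rgs2 at a log2 fold change of 1.25. Between 2 lines the block compares replicate 1 alone, so this value is not the difference of the group means. In the main fit Rgs2 was at 1.55 there (SE 1.02, adjusted p = 0.376, edgeR). The block alone changed no other number of members by over 1.5 times. Without a filter on low counts 1 member was called for GRP+RC against RC in 1014-Grpr and 1 at rest in the 1181 pair. DESeq2 called 1 for GRP+RC against GRP in 1064. Leaving out a replicate number gave 0 to 2 members for GRP against mock in 1064 and 0 to 1 for GRP+RC against GRP in 1057. The causes were not tested. Scarce members are limited by depth: Rgs4, Rgs5 and Rgs8 held few counts in every library, so that changes in them were not detectable unless large.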
